A study of Mus musculus with 18 samples.

Results

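Inside protein-coding genes of the mouse heart, 390 regions away from the annotated gene starts carried RNA polymerase II with little CTCF signal. They are a part of the 101256 regions, called union peaks here, in which the ChIP-seq reads of all libraries were counted. Members were chosen by the measured values and their position. A peak on chromosomes 1 to 19 was taken when the deposited table assigned it to no gene promoter, when its mean normalized signal was at least 50 in the 6 RNA polymerase II libraries and below 20 in the 6 CTCF libraries, and when it lay wholly between the start and the end of a protein-coding gene of the table. Of 99188 autosomal peaks, 61738 had no promoter assignment, 4085 of those reached the RNA polymerase II level and 734 of these were also below the CTCF level. Of the 734, 390 lay in 342 protein-coding genes and 344 lay outside such genes. A further 1815 peaks inside coding genes passed the RNA polymerase II level but had a CTCF value of 20 or more, and they serve below as the nearest comparison. The level of signal at the 390 peaks is a property of the rule and is described without a test. Differences between genotypes were not part of the rule, but it used the mean over all genotypes, so a peak that is empty in one of them had to be high in another.

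Chromatin came from ventricles of adult mice, with 2 hearts pooled per preparation, and there were 3 genotypes with 2 RNA polymerase II libraries, 2 CTCF libraries and 1 IgG library each. The labels call the controls WT. In *Trdn-as* KO mice a polyadenylation site inserted into exon 1 of the long noncoding RNA *Trdn-as*, transcribed antisense to triadin, ends its transcription early, and the line was crossed onto C57BL/6. In *Mettl3* KO mice both copies of *Mettl3* carry lox sites, and a Cre recombinase fused to mutated estrogen receptor domains (MerCreMer) is driven by the alphaMHC promoter, so that tamoxifen deletes the m6A RNA methyltransferase METTL3 in cardiomyocytes only, at an age of 10 to 16 weeks. In the study, control mice with the lox sites but without the Cre were given tamoxifen too. The labels do not say whether the WT animals here were such mice or received tamoxifen, and the design did not take sex into account.

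RNA polymerase II is recruited to promoters, pauses shortly after the start site, and then elongates through the gene body until the polyadenylation site, beyond which it slows and is released. A local peak of the enzyme within a gene can therefore lie at an alternative start site, an enhancer, an antisense transcript or a place where elongation slows. CTCF binds insulators and loop anchors. The antibody used here was against the largest subunit of the polymerase, and the assay does not tell the strand of transcription.

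Some of these peaks lay close to a second start site of their gene. The sequences before such start sites are shown for 3 genes described below, beside those before the first start: *Acsl1*, which holds the highest peak, *Cacnb2*, which holds the most, and *Lmo7*, which holds 3. The members nearest to these internal starts had mean values of 186, 63.5 and 66. In *Cacnb2* and *Lmo7* they lay beside the start, and the peak over it was a higher one with a CTCF value of 20 or more, which is no member. They are RefSeq sequences of the GRCm38.p6 assembly, the 250 bases before each start, 5′ to 3′. Capitals mark the GC box GGGCGG or its reverse complement CCGCCC, and the TATA box core TATAAA or its reverse complement TTTATA, which were searched on both strands and do not overlap each other.
*Acsl1*, first start, chr8:46470787-46471036, plus strand: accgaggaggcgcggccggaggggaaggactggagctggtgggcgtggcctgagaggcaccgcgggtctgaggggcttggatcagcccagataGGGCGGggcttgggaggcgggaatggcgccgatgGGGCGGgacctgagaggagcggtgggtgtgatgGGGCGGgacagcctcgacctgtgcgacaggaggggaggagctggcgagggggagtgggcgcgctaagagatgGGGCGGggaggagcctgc
*Acsl1*, internal start, chr8:46490716-46490965, plus strand: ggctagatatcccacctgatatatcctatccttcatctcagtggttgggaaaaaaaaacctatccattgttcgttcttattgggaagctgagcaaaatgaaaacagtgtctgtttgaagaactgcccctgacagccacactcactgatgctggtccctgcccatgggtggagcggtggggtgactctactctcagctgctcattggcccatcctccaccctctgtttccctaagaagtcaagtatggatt
*Cacnb2*, first start, chr2:14604056-14604305, plus strand: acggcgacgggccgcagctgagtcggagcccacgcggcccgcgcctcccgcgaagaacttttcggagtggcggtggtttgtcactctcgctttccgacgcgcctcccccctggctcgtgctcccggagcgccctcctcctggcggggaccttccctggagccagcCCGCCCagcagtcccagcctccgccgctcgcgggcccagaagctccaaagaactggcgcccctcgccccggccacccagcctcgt
*Cacnb2*, internal start, chr2:14823842-14824091, plus strand: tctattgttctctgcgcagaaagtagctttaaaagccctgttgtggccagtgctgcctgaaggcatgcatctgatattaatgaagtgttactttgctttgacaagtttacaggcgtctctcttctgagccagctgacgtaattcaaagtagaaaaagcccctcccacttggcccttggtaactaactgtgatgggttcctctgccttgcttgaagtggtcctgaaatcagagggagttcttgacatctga
*Lmo7*, first start, chr14:101729678-101729927, plus strand: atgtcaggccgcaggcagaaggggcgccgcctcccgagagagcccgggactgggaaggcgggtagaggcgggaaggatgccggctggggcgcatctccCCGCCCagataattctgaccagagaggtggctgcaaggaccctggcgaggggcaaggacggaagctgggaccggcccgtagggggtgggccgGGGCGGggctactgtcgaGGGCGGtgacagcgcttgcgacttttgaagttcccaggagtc
*Lmo7*, internal start, chr14:101840373-101840622, plus strand: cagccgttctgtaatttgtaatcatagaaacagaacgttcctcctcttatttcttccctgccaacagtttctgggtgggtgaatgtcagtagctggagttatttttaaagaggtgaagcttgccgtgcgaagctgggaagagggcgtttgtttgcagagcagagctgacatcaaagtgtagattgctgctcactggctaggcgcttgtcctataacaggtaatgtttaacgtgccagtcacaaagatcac
The windows before the first starts of *Acsl1*, *Cacnb2* and *Lmo7* held 72.0%, 73.2% and 68.8% G or C and 20, 30 and 20 CpG dinucleotides, and each held a GC box. Those before the internal starts held 48.4%, 46.0% and 46.0% G or C and 2, 3 and 7 CpG, and neither motif. Where a peak lay in more than 1 coding gene the shortest was named as its host, and of the 332 hosts 251 had an entry in this table. A GC box was found in 53.6% of their 407 promoter windows and in 32.7% of all 32851, and a TATA box core in 9.34% and 12.4%. The host windows were also richer in G or C, with medians of 59.6% and 52.4%, and in CpG, with 12 and 6. The motif shares were not adjusted for this.

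The libraries differed in depth. The value of a single read, estimated from the spacing of the deposited values, lay between 0.945 and 2.04 for RNA polymerase II, so a median member stood on 25.05 to 75.7 reads per library. Between 35.5% and 42.6% of the mapped reads lay in union peaks in 5 of the 6 libraries, but 18.6% in *Trdn-as* KO library 2, which stands apart. In reads per 1000000 mapped reads (RPM) the median member had 5.66 and 6.47 for WT, 4.77 and 2.35 for *Trdn-as* KO and 4.94 and 5.14 for *Mettl3* KO, against 0.546, 0.578 and 0.664 in the IgG libraries. Both WT libraries were above the WT IgG library at 388 of the 390 peaks, and the exceptions were 2 peaks in *Esr1*. Both *Trdn-as* KO libraries were above their IgG library at 384 peaks, where the exceptions were 1 peak each in *Esr1*, *Gcnt2*, *Mbnl2*, *Myof*, *Olfml2b* and *Trdn*, and both *Mettl3* KO libraries at 390. The main promoter peak of *Trdn-as* had values of 530 and 595 for WT, 140 and 100 for *Trdn-as* KO and 503 and 491 for *Mettl3* KO. The promoter peak of *Mettl3* had 177 and 202 for WT and 240 and 235 for *Mettl3* KO. Which exons are deleted is not stated, so this peak cannot serve as a check of the deletion. All 7 cardiomyocyte markers had promoter signal, with means from 131.5 to 10426, while *Alb* and *Apoa1*, markers of liver, had none above 28.2. Of the 7, 2 were lower in *Trdn-as* KO than in WT without overlap, and in *Mettl3* KO 2 were higher and 2 lower. The 6 fibroblast markers summed to 1618 and 1769 for WT, 2352 and 1737 for *Trdn-as* KO and 3312 and 3218 for *Mettl3* KO, and 6 of 6 were higher in both *Mettl3* KO libraries than in both WT libraries, as were 3 of 6 in both *Trdn-as* KO libraries. In *Mettl3* KO 2 of 4 markers of pericytes and smooth muscle were also higher without overlap, and of 6 endothelial markers 1 was higher and 3 were lower. In a mixed tissue, more cells of a type and more signal per cell cannot be told apart.

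The 390 peaks were narrow and moderate in height. Their mean values ran from 50 to 186 with a median of 62.8, and 36 reached 100. Just inside the threshold stood peaks in *Ablim1*, *Septin4* and *Dagla*, each at 50, and just outside it stood peaks in *Col15a1*, *Prkch* and *Lasp1*, each at 49.8. The median width was 693 nt, against 1261 nt for the 1815 peaks with a CTCF value of 20 or more and 1358 nt for 12217 promoter peaks of at least 50. The median mean value was 95.7 in the former and 215 in the latter. The median IgG value of 22.7 was likewise below the 46.7 and 55.0 of those sets. The IgG values rest on few reads, with a median of 9.03, 3.05 and 4.99 reads per peak, and 329 of the 390 peaks had a mean RNA polymerase II value at least 2 times the mean IgG value.

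The peaks lay along the whole length of their genes. Their median distance was 29898.5 nt from the annotated start and 32897.5 nt from the annotated end, in genes with a median length of 75208 nt. When each gene was cut into 4 equal stretches, the first held 65 peaks, the second 131, the third 103 and the last 91, while 40 lay within 5000 nt of the gene end. The low number in the first stretch goes with the 5000 nt around a start that the authors assigned to promoters. The 1815 peaks with more CTCF signal were spread alike, with 18.4%, 30.1%, 29.1% and 22.4% in the 4 stretches against 16.7%, 33.6%, 26.4% and 23.3%. Of the 390, 10 lay under an annotated gene on the opposite strand, of which 3 were long noncoding RNAs. In all, 88, or 22.6%, lay within 25000 nt beyond the 3′ end of a gene on the opposite strand, and 411, or 22.6%, of the 1815 did so as well. For 34 of the 88 the opposite gene lay wholly inside the host gene. This arrangement is that of the *Trdn* peaks with *Trdn-as*, so it is not particular to *Trdn*.

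The peaks are in GRCm39, for which no transcript models were used here. Distances from the gene start were therefore compared with those in the GENCODE vM21 models of GRCm38, only for 372 peaks in genes whose annotated length was the same in both. By distance, 133 of the 372 (35.8%) overlapped an exon and the others lay in introns, against 42.9% overlapping an exon among 1768 peaks with more CTCF signal. A transcript start more than 5000 nt after the gene start lay within 1000 nt of 89 peaks (23.9%), against 31.7% of the 1768. For 53 of the 89 the nearest such transcript was protein-coding. A transcript end lay within 1000 nt of 51 peaks (13.7%), against 8.94%. The 89 peaks near an internal start had a median value of 63.5 and the other 283 a median of 62.7, so height did not separate them.

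The highest of the 390 peaks lay in *Acsl1*, which encodes the main long-chain acyl-CoA synthetase of the heart. It stood at 165 and 182 for WT, 209 and 147 for *Trdn-as* KO and 197 and 216 for *Mettl3* KO, on chromosome 8 from 46943752 to 46944737. Its centre was 20170.5 nt from the gene start, and the internal start whose sequence is given above lies 19929 nt after the first start in RefSeq. The genotypes overlapped between *Trdn-as* KO and WT, and neither knockout passed the test (adjusted p = 0.996 and 0.586, limma with Benjamini-Hochberg adjustment over all 52655 peaks tested). *Atcay*, which encodes caytaxin, followed with a mean of 177, and *Myh7*, the slow beta myosin heavy chain, with 157.0. The *Myh7* peak had 174 and 222 for WT, 184 and 122 for *Trdn-as* KO and 123 and 117 for *Mettl3* KO, and an unnamed gene is annotated under it on the opposite strand. *Mtr*, methionine synthase, had a mean of 147 at a peak 57949.5 nt into the gene, 323.5 nt from an internal transcript start by distance. The other peaks among the 10 highest lay in *Cacnb2* (145 and 144), in *Nsmce4a* within *Fgfr2* (142), in *Gipc2* (140.0), in *Hipk3* (139) and in *Chrnb1* (138.5), which encodes the beta subunit of the muscle acetylcholine receptor. None of the 10 was called in either knockout.

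*Cacnb2*, which encodes a beta subunit of the L-type calcium channel, held the most members. Its 5 peaks summed to a mean value of 484. The first lay 220248 nt from the gene start and the next 3 lay 222366, 230589.5 and 231967 nt from the start. The fifth lay at 327046 nt. The promoter peak at the first start had only 64 and 53 for WT, so that the members at 230589.5 and 231967 nt, with 146 and 159 and with 180 and 168 for WT, stood above it. The highest peak inside the gene, at 221179.5 nt with 241 and 228 for WT, was no member because its mean CTCF value was 24.2. It covers the internal start, which GENCODE places 221004 nt from the gene start, while RefSeq counts 219786 nt from its own first start. *Ttn*, which encodes the giant sarcomere protein titin, held 4 members. *Hipk3*, *Gipc2*, *Mybpc3*, *Lmo7* and *Ehd4* held 3 each, and 41 further genes held 2. *Mybpc3* encodes cardiac myosin-binding protein C, and its 3 peaks lay side by side between 9011.5 and 12095 nt from its start with means of 61.2, 112.5 and 124.5. In *Shroom3*, an actin-binding protein, both members lay at the start of a protein-coding transcript by distance, 30.0 and 86.5 nt from it. These counts per gene follow from how many neighbouring regions the peak caller made, and from gene length, and are given as a description.

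In *Trdn-as* KO hearts, 1 of the 390 peaks was higher and 8 were lower than in WT. Among all 52655 peaks tested, 0.0798% were called higher and 0.224% lower, against 0.256% and 2.05% of the members. The share called higher is a single peak, and the 8 lower ones include 2 neighbouring peaks each in *Trdn* and *Olfml2b*. At an unadjusted p under 0.05 there were 63 members (16.2%) in both directions, against 7.7% of all peaks tested. Both *Trdn* peaks would average under 50 without the WT libraries, so their membership rests on a group of this comparison. When the level of 50 was taken instead in the *Mettl3* KO libraries, which this comparison does not hold, 439 peaks qualified and 12 were called, 1 higher and 11 lower, and the 12 include all 9. All 390 passed the filter on low values. The median log2 fold change was -0.20 over the 390, -0.07 over all peaks tested, -0.13 over the 1815 with more CTCF signal and -0.18 over the 344 outside coding genes. The *Trdn-as* KO values were both under the WT values at 133 peaks (34.1%) and both over them at 34 (8.72%), against 19.1% and 12.9% of all peaks.

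The largest decreases were those at *Trdn*, which encodes triadin, a protein that links calsequestrin to the calcium release channel of the sarcoplasmic reticulum. The peak on chromosome 10 from 33078294 to 33079617 had 108 and 112 for WT, 9 and 14 for *Trdn-as* KO and 71 and 80 for *Mettl3* KO. Its log2 fold change in *Trdn-as* KO was -3.18 ± 0.32 (SE, adjusted p = 1.86e-10). Its neighbour from 33076772 to 33078096 had 72 and 98 for WT, 9 and 10 for *Trdn-as* KO and 67 and 48 for *Mettl3* KO (-3.02 ± 0.35, adjusted p = 1.72e-08). Both lie in an intron by distance, 122405.5 and 120884 nt into the gene and 19385.5 and 20907 nt beyond the annotated end of *Trdn-as*. Other peaks of the gene fell as well. The next one, at 123706 nt, was too low for the rule and had 76 and 79 for WT against 13 and 6 (adjusted p = 2.52e-07). In *Mettl3* KO it had 40 and 38 (log2 fold change -0.97, adjusted p = 0.199). A peak at 117821.5 nt was also called lower in *Trdn-as* KO. So were peaks at 171797 and 172673.5 nt, which lie within *Trdn-as* itself, close to its promoter peak. Among all 390 peaks the members ranked 1 and 2 from the lowest fold change in *Trdn-as* KO, and 53 and 44 for *Mettl3* KO, where neither was called (adjusted p = 0.420 and 0.446). Both *Mettl3* KO libraries were still below both WT libraries at each, as at 33.1% of the members and 19.5% of all peaks tested. The promoter peaks of *Trdn* summed to 160 and 207 for WT, 204 and 161 for *Trdn-as* KO and 228 and 192 for *Mettl3* KO, so the promoter overlapped between genotypes. The CTCF libraries, which here are nearly at background, were also lower at both peaks, with 10 and 9 for WT and 3 and 5 for *Trdn-as* KO at the first of them by position, and 11 and 7 against 4 and 5 at the second. The *Trdn-as* KO IgG library had 53 at the first by position, above the RNA polymerase II values of 9 and 10 there, and 13 at the second.

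*Lmo7*, which encodes a LIM domain protein of cell junctions and the nuclear envelope, held the third largest decrease. Its peak on chromosome 14 from 102104418 to 102105503 had 54 and 100 for WT, 7 and 12 for *Trdn-as* KO and 102 and 125 for *Mettl3* KO (-2.87 ± 0.34, adjusted p = 3.31e-08). The *Trdn-as* KO libraries lay far below the other 4, and in *Mettl3* KO the peak was not called (log2 fold change 0.61, adjusted p = 0.383). Neighbouring peaks were lower too. The next 2, whose CTCF values kept them out of the 390, were called at 139424 nt from the start with 64 and 66 for WT against 21 and 10 (adjusted p = 2.34e-04) and at 142914 nt with 112 and 146 against 63 and 55 (adjusted p = 0.0291). The other members in *Lmo7* were not called. The one at 111732.5 nt had 79 and 78 for WT against 89 and 59. It lies next to a peak of 193 and 165 for WT against 171 and 126, at 110387 nt, which covers the internal start at 110862 nt and had a CTCF value of 28. The member at 155263 nt had 59 and 85 against 65 and 49. The peak of the gene start had 189 and 190 against 190 and 122. The CTCF libraries at the decreased member had 18 and 18 for WT and 8 and 9 for *Trdn-as* KO. *Lmo7* lies on another chromosome than *Trdn*, and no annotated gene of the table lay closer to this peak than 171399.5 nt other than *Lmo7* itself.

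Of the remaining calls, the increase was in *Rabepk*, which encodes a kelch-repeat effector of Rab9. The peak had 60 and 60 for WT, 197 and 159 for *Trdn-as* KO and 67 and 56 for *Mettl3* KO (1.55 ± 0.26, adjusted p = 2.38e-04). Its call was kept in 7 of the 14 alternative settings described at the end, with log2 fold changes of 0.95 to 1.70. It lay at the annotated end of *Rabepk*, with its centre 997 nt from that end and 1006 nt beyond the annotated end of *Hspa5*, the gene of the endoplasmic reticulum chaperone BiP, which runs toward *Rabepk* on the other strand. The peaks of the *Rabepk* promoter summed to 493 and 506 for WT and 504 and 407 for *Trdn-as* KO. At *Hspa5* the peak of the start had 730 and 622 for WT against 820 and 759, and a peak 2981.5 nt into it had 10 and 9 against 39 and 26, without either being called (adjusted p = 0.759 and 0.366). A peak 4611 nt into it had 37 and 27 against 97 and 31, and one at 5359.5 nt had 7 and 9 against 28 and 20. Neither was called (adjusted p = 0.651 and 0.499). Low peaks at 2381 and 3626.5 nt had 4 and 4 against 15 and 10, and 5 and 2 against 16 and 8. Which of the 2 genes the signal belongs to cannot be told apart.

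*Olfml2b*, which encodes an olfactomedin-like matrix protein, held 2 decreased members, with 91 and 82 for WT against 34 and 35 (-1.30 ± 0.29, adjusted p = 0.0170) and with 113 and 103 against 78 and 22 (-1.35 ± 0.31, adjusted p = 0.0243). A promoter peak of the gene, 3601 nt from its start, was lower too, with 154 and 200 for WT against 24 and 39, whereas the peak at the start itself had 57 and 53 against 78 and 63. *Lnx1*, a ubiquitin ligase of the Numb protein, had 57 and 62 against 30 and 12 (-1.59 ± 0.35, adjusted p = 0.0133), at an internal protein-coding start by distance. *Myof*, the membrane repair protein myoferlin, had 50 and 59 against 30 and 12 (-1.46 ± 0.34, adjusted p = 0.0243). In *Lnx1*, in *Myof* and at the second *Olfml2b* peak the lower value was that of library 2, the one with the small share of reads in peaks, and without it none of the 3 was called. The log2 fold changes were then -0.96 in *Lnx1*, -0.84 in *Myof* and -0.46 at that *Olfml2b* peak (adjusted p = 0.421, 0.40 and 0.549), while the first *Olfml2b* peak stood at -1.32 and was not called either (adjusted p = 0.134). The *Trdn-as* KO IgG library had 26 in *Myof* and 59 at the second *Olfml2b* peak, above the lower of the RNA polymerase II values at each. *Tmem179* had 116 and 122 for WT, 56 and 53 for *Trdn-as* KO and 58 and 56 for *Mettl3* KO, and was called lower in both knockouts (adjusted p = 0.0498 and 0.0378), which share the WT libraries. The promoter peaks of *Tmem179* summed to 24 and 27 for WT. The centre of the member lay 1280.5 nt beyond the annotated end of *A530016L24Rik*, a coding gene on the other strand, so its gene cannot be told. The number of called members moved when a library was left out. It was 4 without *Trdn-as* KO library 2, 31 without *Trdn-as* KO library 1, 3 and 2 without WT library 1 and 2, and 3 without either *Mettl3* KO library.

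In *Mettl3* KO hearts, 5 of the 390 peaks were higher and 6 lower than in WT, or 1.28% and 1.54%. The 5 include both *Esr1* peaks, which had to differ for the reason given below, and 3 remain without them. Of the 5, 4 would average under 50 without the *Mettl3* KO libraries, namely both *Esr1* peaks described next and those in *Bnc2* and *Tns1*, and of the 6 the one in *Tmem144* would without the WT libraries. With the level of 50 taken in the *Trdn-as* KO libraries, 367 peaks qualified and 3 were higher and 10 lower, among them 9 of the 11 calls, all but those in *Esr1*. The background over all peaks tested was 0.712% higher and 0.482% lower. Both directions together, 2.82% of the members were called, close to 2.59% of the 1815 peaks with more CTCF signal and below 4.94% of the 344 outside coding genes. The median log2 fold change was -0.12 over the 390, 0.08 over all peaks tested and 0.25 over the promoter peaks. Of the members, those with both *Mettl3* KO libraries under both WT libraries numbered 129 (33.1%), and those above them 84 (21.5%), against 19.5% and 31.2% of all peaks. The split of the calls moved with the scaling. With equal library totals 7 were higher and 30 lower, and with median-of-ratios factors 7 and 24, while scaling by the uniquely mapped reads gave 2 and 0. At an unadjusted p under 0.05 limma gave 73 members (18.7%), against 15.5% of all peaks tested. Without *Mettl3* KO library 1 or 2 the number called was 0, with 40 and 42 at an unadjusted p under 0.05, while it was 2 without either WT library and 29 without either *Trdn-as* KO library.

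The 2 highest fold changes lay in *Esr1*, the gene of estrogen receptor alpha. These peaks were at 0 in both WT libraries and reached the level of 50 through the *Mettl3* KO libraries alone, so they had to differ. The peak on chromosome 10 from 4806875 to 4807242 had 260 and 301 for *Mettl3* KO and 3 and 2 for *Trdn-as* KO, and the one from 4951147 to 4951473 had 167 and 171 and 0 and 2. Against a floor of 3 reads per WT library the means were at least 81.1-fold and 48.9-fold higher. All 8 gene-body peaks of *Esr1* show a split by exon. By distance, the 5 that overlap exons had values of 94 to 301 in the *Mettl3* KO libraries and at most 1 in WT, and the 3 in introns had at most 5 in any RNA polymerase II library. The 2 members were 368 and 327 nt wide. At them the *Mettl3* KO IgG library had 41 and 37 against 18 and 10 for WT, and the *Mettl3* KO CTCF libraries had 9 and 7, and 10 and 9, against 0 in WT. The promoter peak of *Esr1* had 10 and 7 for WT and 8 and 8 for *Mettl3* KO. The MerCreMer transgene of this genotype holds estrogen receptor coding sequence, and reads from it and from *Esr1* cannot be told apart in these values.

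The other 3 increases were in *Mfap5*, *Bnc2* and *Tns1*. *Mfap5*, a component of elastic microfibrils, had 27 and 53 for WT, 52 and 79 for *Trdn-as* KO and 120 and 125 for *Mettl3* KO (1.67 ± 0.30, adjusted p = 5.40e-04). *Bnc2*, a zinc finger protein of mesenchymal cells, had 37 and 37 for WT and 90 and 90 for *Mettl3* KO (1.26 ± 0.30, adjusted p = 0.0176). *Tns1*, the focal adhesion protein tensin, had 31 and 39 and then 84 and 82 (1.23 ± 0.31, adjusted p = 0.0244). All 3 lay within 1000 nt of an internal start of a protein-coding transcript by distance. *Mfap5* and *Bnc2* are known from fibroblasts, and the fibroblast markers given above were higher in the same libraries, but their part in these calls was not tested.

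The 6 decreases included 2 genes of cardiomyocyte function. The *Ttn* peak from 76637360 to 76638076 on chromosome 2 had 91 and 79 for WT, 89 and 61 for *Trdn-as* KO and 31 and 37 for *Mettl3* KO (-1.30 ± 0.30, adjusted p = 0.0125). It lay 175173 nt into the gene, in an exon by distance, while the peak next to it at 175992 nt had 56 and 72 for WT and 70 and 38 for *Mettl3* KO. The decrease was not limited to this peak, since the 81 other gene-body peaks of *Ttn* summed to 1146 and 1438 for WT against 795 and 751, and 2 that are no members, at 99527 and 96465.5 nt, were called lower too (adjusted p = 0.0239 and 0.0382). The *Cacnb2* peak at 222366 nt had 105 and 108 for WT and 40 and 61 for *Mettl3* KO (-1.09 ± 0.28, adjusted p = 0.0350), and 72 and 59 for *Trdn-as* KO. The other gene-body peaks of *Cacnb2* were lower as well, with sums of 947 and 963 for WT against 728 and 696 for *Mettl3* KO. *Pde7b*, a cyclic AMP phosphodiesterase, had 68 and 121 against 42 and 30, *Tmem144* had 75 and 73 against 36 and 21, and *Plekhm2*, an adaptor of lysosomes to kinesin, had 131 and 112 against 59 and 58 (adjusted p = 0.0119, 0.0230 and 0.0408). Their other gene-body peaks summed to 619 and 789 against 521 and 481 in *Pde7b* and to 698 and 759 against 528 and 498 in *Plekhm2*. In *Tmem144* these sums were 60 and 92 against 114 and 73. Promoter signal of *Ttn* was 1536 and 1657 for WT and 1734 and 1746 for *Mettl3* KO.

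**Figure D1:**
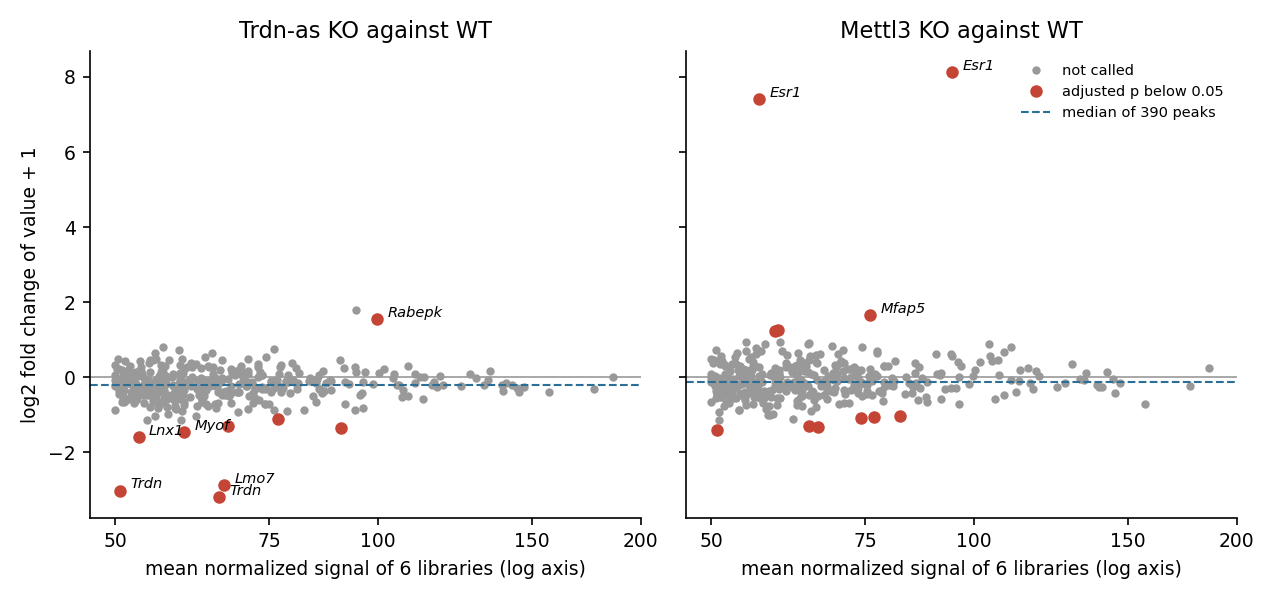
Log2 fold change of value + 1 at the 390 peaks against their mean normalized signal over the 6 libraries (log axis), for *Trdn-as* KO and *Mettl3* KO against WT. Red points passed an adjusted p of 0.05, those with the widest changes carry the host gene name, and the dashed line is the median of the 390 peaks at -0.20 and -0.12. Both *Trdn* points and the lowest of the 3 *Lmo7* points lie below all others in the left panel, and the *Esr1* points above all others in the right panel.

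The knockouts were also compared with each other, a difference of means that holds no WT value, although the WT libraries still entered the estimate of the spread. In *Trdn-as* KO against *Mettl3* KO, 2 peaks were higher and 15 lower, or 0.513% and 3.85%, where all peaks tested had 0.355% and 1.15%. Both directions together, 4.36% of the members were called, 2.48% of the 1815 peaks with more CTCF signal and 5.52% of the 344 outside coding genes. The 15 include both *Esr1* peaks, which had to differ for the reason given above, and 13 remain without them. Of the 15, 9 would average under 50 without the *Mettl3* KO libraries, among them the *Esr1*, *Lmo7* and *Myof* peaks and 1 of the *Trdn* peaks. With the level of 50 taken in WT, 509 peaks qualified, 7 were higher and 16 lower, and 14 of the 17 calls were among them, the *Esr1* and *Cyth3* peaks being left out. With only the libraries of both knockouts fitted there were 8 calls in place of 17. Without *Trdn-as* KO library 1 and 2 there were 60 and 7, without *Mettl3* KO library 1 and 2 2 and 1, and without either WT library 7. The *Rabepk* and *Ttn* peaks were the 2 higher ones (log2 fold change 1.52 and 1.10). Among the lower ones were both *Trdn* peaks (-2.64 and -2.46) and the *Lmo7* peak (-3.48, adjusted p = 5.20e-11). *Myof* had 30 and 12 for *Trdn-as* KO and 108 and 101 for *Mettl3* KO (-2.39 ± 0.34, adjusted p = 3.12e-06). *Macf1*, *Pdcd4*, *Cyth3*, *Plin1*, *Dixdc1* and *Osmr* were called here but not in either comparison with WT. For *Dixdc1* the values were 94 and 86 for WT, 83 and 79 for *Trdn-as* KO and 177 and 142 for *Mettl3* KO. The *Plin1* peak, in the gene of the lipid droplet protein perilipin, had 106 and 101 for WT, 80 and 65 for *Trdn-as* KO and 146 and 141 for *Mettl3* KO, while the summed promoter signal of 3 adipocyte markers, *Plin1* among them, stayed between 26 and 36 in all libraries.

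To set the gene-body signal against the start of the same gene, the members of each host gene were summed and divided by its promoter peaks within each library, which removes the scaling of the library. Over 316 members of 267 genes, the signal in members was 21.0% and 21.7% of the promoter signal for WT, 19.5% and 19.3% for *Trdn-as* KO and 19.1% and 18.2% for *Mettl3* KO. The knockouts did not overlap with WT, and the means were 21.3% ± 0.471 (SD, n = 2) in WT, 19.4% ± 0.122 in *Trdn-as* KO and 18.6% ± 0.582 in *Mettl3* KO. A two-sided exact permutation test gave p = 0.333 for each, the smallest value 2 against 2 libraries allow. The 1451 peaks with more CTCF signal, in 903 genes, showed the same order, with 59.8% and 61.1%, then 56.7% and 56.3%, then 54.8% and 52.7%, so it was not particular to the members. With the 30 members whose mean was at least 100, the *Mettl3* KO ratio was higher than in WT, by 0.0739 on the log2 scale, against -0.20 with all. In *Mettl3* KO the median log2 change was -0.10 for the members of a gene and 0.20 for its promoter, and in *Trdn-as* KO it was -0.19 and -0.02.

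Gene by gene, 3 of the 267 host genes had a changed ratio in *Trdn-as* KO (0.375% higher and 0.749% lower). These were *Trdn* (-3.16 ± 0.28, adjusted p = 3.58e-06), *Ncoa6*, a nuclear receptor coactivator (-1.35 ± 0.26, adjusted p = 0.0122), and *Rabepk* (1.69 ± 0.22, adjusted p = 1.82e-04). The *Rabepk* member is the one beside the end of *Hspa5* described above, so its ratio may hold signal of either gene. The *Ncoa6* member lay 743.5 nt before the end of the gene and had 89 and 85 for WT, 44 and 35 for *Trdn-as* KO and 45 and 59 for *Mettl3* KO, with a promoter at 193 and 211, 257 and 216, and 264 and 262. The centre of this member lay 1549.5 nt beyond the annotated end of *Trp53inp2* on the other strand, so its gene cannot be told either. In *Mettl3* KO 9 genes had a lower ratio and 0 a higher one (3.37% and 0%), and at an unadjusted p under 0.05 there were 77 genes in both directions. Without either WT library 0 genes were called, with 42 and 43 at an unadjusted p under 0.05, with a replicate block 2 were called, and without either *Trdn-as* KO library 26. The 9 genes of the main fit were *Ssbp2*, *Ttn*, *Tango6*, *Macrod1*, *Ncoa6*, *Pcsk6*, *Gramd4*, *Grb2* and *Tmem104*. *Trdn* was not among them, with a ratio change of -0.75 ± 0.28 by limma (unadjusted p = 0.0184, adjusted p = 0.120). For *Ttn* the 4 members summed to 286 and 308 for WT and 187 and 213 for *Mettl3* KO (-0.70 ± 0.14, adjusted p = 0.0171). For *Pcsk6*, a proprotein convertase, the member had 84 and 84 against 69 and 61, while the promoter had 59 and 61 against 111 and 107 (-1.22 ± 0.31, adjusted p = 0.0417), so most of that change was at the promoter. For *Ssbp2*, a DNA-binding cofactor of LIM-domain factors, both parts moved, with 79 and 63 against 45 and 32 in the member and 331 and 306 against 456 and 461 at the promoter (-1.40 ± 0.27, adjusted p = 0.0171).

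By function, the members were set against lists of genes of the heart, each of which is described by its counts and its median, beside medians of -0.20 in *Trdn-as* KO and -0.12 in *Mettl3* KO over the 390 members and of -0.07 and 0.08 over all peaks tested. The shares at an unadjusted p under 0.05 given above are the background for the unadjusted counts here. Of 44 genes of the sarcomere and Z-disc, 9 held 16 members, among them *Myh7*, *Mybpc3*, *Actn2*, *Ldb3*, *Tpm1* and *Ttn*. In *Trdn-as* KO limma called 0 of the 16, with 3 at an unadjusted p under 0.05, and their median log2 fold change was -0.26. In *Mettl3* KO the *Ttn* peak was called and the median was -0.25. Of 27 genes of calcium release and reuptake, 6 held 12 members. Both *Trdn* peaks were called in *Trdn-as* KO and 1 *Cacnb2* peak in *Mettl3* KO, with 5 and 1 at an unadjusted p under 0.05 and medians of -0.49 and -0.39 over the 12, of which 5 lie in *Cacnb2* and 2 in *Trdn*. The other calcium genes were not called, such as *Atp2a2*, the calcium pump SERCA2, with 69 and 92 for WT, 73 and 49 for *Trdn-as* KO and 63 and 61 for *Mettl3* KO. The junctional protein gene *Jph2* held 2 members, one with 84 and 96 for WT against 45 and 65 for *Trdn-as* KO and one with 61 and 65 against 88 and 69. Of 33 genes of ion channels and the intercalated disc, 4 (*Ank2*, *Gja1*, *Hcn4*, *Pkp2*) held 6 members with 0 calls by limma and 1 at an unadjusted p under 0.05 in each knockout. The *Pkp2* peak at 40542.5 nt, in the gene of the desmosome protein plakophilin, was the highest of them, with 102 and 112 for WT, 101 and 116 for *Trdn-as* KO and 123 and 123 for *Mettl3* KO. Of 49 genes of fatty acid and energy metabolism, 5 (*Acadm*, *Acsl1*, *Ckm*, *Lpl*, *Pfkm*) held 6 members with 0 calls, and again 1 at an unadjusted p under 0.05 in each. Of 24 cardiac transcription regulators, 4 (*Esrrg*, *Gata6*, *Myocd*, *Tead1*) also held 6 with 0 calls, with 3 at an unadjusted p under 0.05 in *Trdn-as* KO and 0 in *Mettl3* KO. The clock list had 1 member in *Cry2*, the fibroblast list 2 in *Sparc*, the endothelial list 1 in *Kdr* and the leukocyte and adipocyte list 1 in *Plin1*, and none of these was called against WT. At the *Kdr* peak the CTCF libraries had 26 and 25 for WT and 8 and 12 for *Mettl3* KO, while the RNA polymerase II values were 53 and 59 against 34 and 50.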

How the data were processed

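The study measured RNA polymerase II, CTCF and IgG background by ChIP-seq of mouse ventricles. The authors trimmed reads with Trimmomatic 0.39, aligned them to mm39 (GRCm39) with STAR 2.7.11b, removed duplicates with Picard 3.1.1, called peaks with MACS, assigned reads to union peaks with featureCounts and divided them by DESeq2 1.36.0 size factors. The values deposited by the authors are this normalized signal, treated as a score because it was rounded to whole numbers. Peaks within 5000 nt of a gene start carry that gene in the table. Duplicate removal, the peak caller and the common size factors for all targets bear on narrow peaks with low values.

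The design assumed that counts might be deposited. As they were not, the test it named for that case was used, limma 3.58.1 (R 4.3.3) on log2(value + 1) with a variance trend, over the 6 RNA polymerase II libraries and 52655 peaks with at least 10 in at least 2 libraries, with Benjamini-Hochberg adjustment at 0.05. The gene-body to promoter ratio was fitted likewise in host genes with a promoter sum of at least 50. On this scale, changes of low peaks come out too small. Separate animals per library are not stated beyond the pooling of 2 hearts, so p-values measure the spread between these libraries. A count of 0 allows up to 3 reads, for counting error only. Python 3.11.15, scipy 1.17.1 and matplotlib 3.10.9 did the rest.

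The members and the gene lists were chosen with earlier results of these data known. Peaks were named by a written rule: members in *Trdn*, the 10 highest, the 10 genes with most members, the called ones, those at the threshold, and examples of the lists. The comparison with GENCODE vM21 distances, the opposite-strand geometry and the CTCF libraries at the members were added after values had been seen, as were the neighbouring peaks of *Lmo7*, *Trdn*, *Ttn*, *Cacnb2*, *Hspa5*, *Olfml2b* and *Esr1*. Replicate numbers did not pair the libraries. Alternatives were other library sizes, filters, pseudocounts, samples, member rules, no trend, a replicate block and leaving out each library. The input libraries were not analysed here.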

Additional observations from a re-analysis of the deposited data

Results flagged for a closer look

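The CTCF libraries were used in no comparison, and at 2 of the 390 peaks they were at least 2 times as high in a knockout as in WT, with no overlap and a mean of at least 5. Of all 52655 peaks tested, 0.425% in *Trdn-as* KO and 1.10% in *Mettl3* KO met this, and 0.775% and 2.23% of the 25418 among them with a mean CTCF value below 20, against 0% and 0.513% of the members. Both lay in *Esr1*, where the mean CTCF value in *Mettl3* KO was 8 at one peak and 9.5 at the other, with 0 in both WT libraries, and both peaks are members only through their *Mettl3* KO values. The IgG library of *Mettl3* KO was also the highest of the 3 IgG libraries there.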

How the results depend on the processing

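The called members were followed through 14 alternatives each, and no fold change turned its direction in any of the 3 comparisons. The numbers of called members, 9, 11 and 17 for *Trdn-as* KO against WT, *Mettl3* KO against WT and *Trdn-as* KO against *Mettl3* KO, depended strongly on the settings. In that order they were 0, 0 and 0 by limma without the filter on low values (58, 64 and 61 at an unadjusted p under 0.05), 0, 1 and 1 without the variance trend, 4, 2 and 8 with library sizes taken from uniquely mapped reads, 4, 30 and 8 with only the 2 genotypes compared and 4, 3 and 9 at an adjusted p below 0.01. With members of at least 100 they were 0, 0 and 2, with a CTCF value below 10 they were 3, 3 and 6, and with at least 2 times the IgG value 5 and 7 in the first 2. With the level of 50 taken in the genotype outside each comparison, an alternative chosen after seeing the data, they were 12, 13 and 23. *Mettl3* KO alone moved with equal totals, to 37, and with median-of-ratios factors, to 31. Leaving out a library gave 2 to 31, 0 to 29 and 1 to 60, with the highest of each, 31, 29 and 60, without *Trdn-as* KO replicate 1; the library left alone in its arm is then assumed to vary like the other groups. The cause of these moves was not tested. Among the calls of *Trdn-as* KO against WT, those at *Trdn* and *Lmo7* were kept most often, in 12, 12 and 11 of 14 alternatives with log2 fold changes of -3.57 to -2.40, -3.75 to -2.61 and -3.43 to -2.24.

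Genes with a changed ratio, 3 and 9 for *Trdn-as* KO and *Mettl3* KO, were 9 and 26 with only the compared genotypes. In *Trdn-as* KO there were 5 with a pseudocount of 8 and 1 with a CTCF value below 10. In *Mettl3* KO there were 4 with members of at least 100, 4 with at least 2 times the IgG value and 0 at an adjusted p below 0.01. Leaving out a library gave 2 to 9 and 0 to 26. Without either WT library the 9 calls of *Mettl3* KO fell to 0 (42 and 43 at an unadjusted p under 0.05). The summed ratio in *Mettl3* KO, at -0.20 on the log2 scale against WT, turned to 0.0739 with the 30 members of at least 100.

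The replicate numbers share nothing in the labels but the number, and deviations of same-numbered libraries correlated at -0.0045, -0.00023 and -0.0096 for the 3 pairs of genotypes. With a replicate block the calls were 9, 13 and 21, and the changed ratios 3 and 2.

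The scaling moved all peaks together. The median log2 fold change of all peaks tested in *Trdn-as* KO was -0.07 as deposited and -0.65 with uniquely mapped reads, and in *Mettl3* KO it was 0.08 as deposited and -0.08 with equal totals. Relative to that median, the 390 peaks stood at -0.12 to -0.14 in *Trdn-as* KO and at -0.19 to -0.20 in *Mettl3* KO under the 4 scalings. Depth limits the low values, since a single read is worth up to 2.04 units.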

Other observations

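In the opposite direction, the CTCF libraries were lower in a knockout by at least 2 times, without overlap, at 6 of the 390 peaks, 3 in each genotype (0.769%), where all peaks tested had 1.43% and 1.92% and those with a mean CTCF value below 20 had 2.87% and 3.92%. In *Trdn-as* KO these were both *Trdn* peaks and the decreased *Lmo7* peak. In *Mettl3* KO they were the peaks in *Kdr*, *Eva1a* and *Txlnb*, with CTCF values of 22 and 24 in WT against 12 and 11 at *Eva1a* and 19 and 14 against 5 and 9 at *Txlnb*, and none of them was called for RNA polymerase II. These values were not tested.

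Members near an internal transcript start and the others had different median fold changes in *Mettl3* KO, at 0.06 over 89 and -0.15 over 283, and in *Trdn-as* KO, at -0.14 and -0.20. Peaks share libraries and genes, so this is a description. Within 5000 nt of the gene end, 40 members had a median log2 fold change of -0.35 in *Trdn-as* KO, against -0.13 for 100 members between 5000 and 20000 nt and -0.20 for 250 farther away. For the peaks with more CTCF signal, the medians in the same 3 bins were -0.14, -0.14 and -0.12.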
